A study of Mus musculus with 11 samples.

Results

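The thin filament of skeletal muscle was followed through 10 genes, selected by symbol from the 55385 genes of the deposited count table. They were skeletal alpha-actin (Acta1), the slow and fast troponin T genes (Tnnt1 and Tnnt3), the slow and fast troponin I genes (Tnni1 and Tnni2), the slow and fast troponin C genes (Tnnc1 and Tnnc2), and 3 tropomyosin genes (Tpm1, Tpm2 and Tpm3). All 10 passed the low-count filter, which left 15416 genes for testing. Gene expression had been measured by RNA sequencing of whole gastrocnemius, a calf muscle that is mostly fast in the mouse, dissected after 36 h without food. The 4 groups were ZEB1 flx/flx controls (libraries 2 and 3), ZEB1 flx/flx;HSACre knockouts (libraries 1 to 3), ZEB2 flx/flx controls (libraries 1 to 3) and ZEB2 flx/flx;HSACre knockouts (libraries 1 to 3), called ZEB1_control, ZEB1_KO, ZEB2_control and ZEB2_KO here. Every group was fasted and carried floxed alleles. HSA-Cre is a recombinase under a skeletal actin promoter, active in myofibres and not in the other cells of the muscle, and no group carried it without floxed alleles, so loss of a ZEB gene and presence of Cre cannot be told apart. Each library held RNA of 2 pooled mice, so the error of each value is the spread between pools.

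Each thin filament is a helix of actin strands with tropomyosin lying along its grooves and a troponin complex at regular intervals. Troponin C binds calcium, troponin I holds the filament in its inhibited state, and troponin T ties the complex to tropomyosin. When calcium rises, tropomyosin shifts and myosin can bind actin. Slow and fast fibres use separate troponin genes, and slow fibres contain the tropomyosin encoded by Tpm3 where fast fibres contain that encoded by Tpm1. Tpm2 is used by both fibre types, as is Acta1. Troponin C of slow muscle (Tnnc1) is also the cardiac form.

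Total counts per library ran from 27286288 to 46259639. Zeb1 stood at 41.2 and 51.1 CPM (counts-per-million) in ZEB1_control and at 28.4 to 30.4 CPM in ZEB1_KO. Zeb2 stood at 23.1 to 25.8 CPM in ZEB2_control and at 14.4 to 18.3 CPM in ZEB2_KO, so every library lay on the side of its label. The edgeR test used below called neither gene in its own line (adjusted p = 0.800 for Zeb1 and 0.0775 for Zeb2). It called 0% of all genes in either knockout contrast. DESeq2 called Zeb2 lower in ZEB2_KO (8.91% of its genes) and did not call Zeb1 in ZEB1_KO (0.0260% of its genes lower). Zeb1 was higher in ZEB2_KO, by 0.50 on the log2 scale. Every ZEB2_KO library lay above every ZEB2_control library for Zeb1 (21.3% of all genes), and DESeq2 called it higher (10.5% of its genes). All CPM are scaled by trimmed-mean (TMM) factors. The 8 skeletal muscle markers checked (Ckm, Acta1, Mb, Ttn, Des, Myh4, Atp2a1 and Ryr1) summed to between 83651 and 116206 CPM. Of the 7 cardiac markers, Nppb was at 0 in every library and Nppa and Myl7 reached at most 0.0619 and 0.0322 CPM. The cardiac list summed to 44.1 and 59.5 CPM in ZEB1_control and 17.1 to 50.4 CPM in ZEB1_KO. In the ZEB2 line it was lower, at 11.9 to 17.1 CPM in ZEB2_control and 8.22 to 11.1 CPM in ZEB2_KO. Between the control groups Myh6 had the smallest p of the 3 cardiac markers tested (edgeR adjusted p = 0.0556). DESeq2 called 1 of these 3 lower in ZEB2_control (0.0909% of its genes). Y-linked genes gave 0 CPM in 4 libraries (ZEB1_control 2, ZEB1_KO 1, ZEB1_KO 2 and ZEB2_control 3), 121 to 243 CPM in the other controls and ZEB1 knockouts, and 202, 241 and 343 CPM in ZEB2_KO, so the sex of the pooled mice was not balanced over the groups.

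RefSeq promoter windows (GRCm38.p6) were found for 8 of the 10 genes, in 10 windows of 300 bases that run from 250 bases before to 50 bases after the transcription start. Tnnt3 and Tnni2 were not in the table. The slow genes are shown because their levels varied together over the libraries, Acta1 because the Cre driver is a promoter of its kind, and Tnnc2 because it holds a copy of CACCTG, the E-box form that ZEB factors are known to bind. Each sequence is written 5′ to 3′ on the gene's strand. Capitals mark matches to CANNTG (the general E-box), CATTCC (the M-CAT element bound by TEAD factors), TATAAA and the CArG box bound by serum response factor.
Tnnt1 (chr7:4515926-4516225, minus strand): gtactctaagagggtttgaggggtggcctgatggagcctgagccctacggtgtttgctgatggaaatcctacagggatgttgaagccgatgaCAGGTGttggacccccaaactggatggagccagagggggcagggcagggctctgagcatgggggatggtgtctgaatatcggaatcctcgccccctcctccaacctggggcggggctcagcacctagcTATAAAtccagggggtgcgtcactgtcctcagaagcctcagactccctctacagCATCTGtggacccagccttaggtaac
Tnni1 (chr1:135799171-135799470, plus strand): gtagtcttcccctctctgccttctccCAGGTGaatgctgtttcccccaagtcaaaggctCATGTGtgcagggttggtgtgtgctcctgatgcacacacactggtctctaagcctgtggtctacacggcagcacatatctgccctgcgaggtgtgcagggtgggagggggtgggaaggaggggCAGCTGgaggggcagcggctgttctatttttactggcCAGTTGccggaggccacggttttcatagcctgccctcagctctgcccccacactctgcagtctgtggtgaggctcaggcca
Tnnc1 (chr14:31208062-31208361, plus strand): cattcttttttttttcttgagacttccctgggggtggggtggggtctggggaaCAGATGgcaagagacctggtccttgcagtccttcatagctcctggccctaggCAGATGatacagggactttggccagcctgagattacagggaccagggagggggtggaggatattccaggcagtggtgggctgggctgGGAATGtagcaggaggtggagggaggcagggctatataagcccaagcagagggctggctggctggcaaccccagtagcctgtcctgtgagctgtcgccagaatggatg
Tpm3 (chr3:90072401-90072700, plus strand): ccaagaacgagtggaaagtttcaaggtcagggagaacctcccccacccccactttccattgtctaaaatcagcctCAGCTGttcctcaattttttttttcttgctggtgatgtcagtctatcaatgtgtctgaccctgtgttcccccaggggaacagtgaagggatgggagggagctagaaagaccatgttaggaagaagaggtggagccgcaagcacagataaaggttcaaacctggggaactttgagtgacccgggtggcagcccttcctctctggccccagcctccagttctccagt
Acta1 (chr8:123894726-123895025, minus strand): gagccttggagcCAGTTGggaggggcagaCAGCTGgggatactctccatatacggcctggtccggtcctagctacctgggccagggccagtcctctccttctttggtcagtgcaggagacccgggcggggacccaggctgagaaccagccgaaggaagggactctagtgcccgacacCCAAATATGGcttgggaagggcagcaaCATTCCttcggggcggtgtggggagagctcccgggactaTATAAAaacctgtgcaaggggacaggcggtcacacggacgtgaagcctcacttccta
Tnnc2 (chr2:164779685-164779984, minus strand): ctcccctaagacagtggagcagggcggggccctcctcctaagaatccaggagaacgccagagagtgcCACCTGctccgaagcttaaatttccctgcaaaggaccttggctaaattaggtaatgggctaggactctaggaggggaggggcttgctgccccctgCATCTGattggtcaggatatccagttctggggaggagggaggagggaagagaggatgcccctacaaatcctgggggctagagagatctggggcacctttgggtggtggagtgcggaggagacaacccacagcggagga

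Motifs were searched on both strands, and positions are those of the first base of the match on the printed strand relative to the RefSeq start. All 10 windows held CANNTG, as did 72.3% of all 32851 promoter windows of the same length. CACCTG or its reverse complement CAGGTG, which is a subset of CANNTG, was present in 3 windows, at -158 in Tnnt1, -224 in Tnni1 and -183 in Tnnc2. It was present in 20.2% of all windows. CATTCC or GGAATG lay at -46 in Acta1, -58 in Tnnc1 and -56 in Tpm1 (14.7% of all windows). TATAAA lay at -7 in Acta1 and -30 in Tnnt1 (13.6%), and a CArG box lay at -73 in Acta1 (1.63%). The MEF2 site was found in 0 of the 10 windows (3.19% of all windows). The 4 slow genes shared CANNTG and none of the other motifs searched, and these matches are descriptions of letters in a window, with no binding measured.

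The thin filament genes made up 6.36% to 7.49% of all counts in a library. Acta1 alone took 2.17% to 2.62%, while the 4 slow genes together took 0.0236% to 0.0928%. To compare genes, CPM were divided by the length of the union of annotated exons (CPM per kb). On that scale Acta1 (chr8:123891769-123894751, GRCm38) was highest with a mean of 15740 CPM per kb over the 11 libraries. Fast troponin T (Tnnt3, chr7:142498836-142516009) followed at 10887, fast troponin C (Tnnc2, chr2:164777161-164779967) at 6957 and fast troponin I (Tnni2, chr7:142441808-142444410) at 4378 CPM per kb. These 4 kept this order in all 11 libraries on this length. The tropomyosins Tpm1 (chr9:67022590-67049406) and Tpm2 (chr4:43514711-43523765) lay lower, at 1570 and 1524 CPM per kb. The mean of Tpm1 was the higher on both lengths, but the number of libraries in that order depended on the length used. Tpm1 exceeded Tpm2 in 6 of 11 libraries on the union of exons and in 11 of 11 on the longest transcript (3522 and 2039 CPM per kb).

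The slow genes lay far lower on the same scale, and the mean of Tpm2, the lowest of the other 6, was 14.9 times that of the highest slow gene. Slow troponin C (Tnnc1, chr14:31208312-31211729) had a mean of 102 CPM per kb, slow troponin T (Tnnt1, chr7:4504570-4516382) 64.0, slow tropomyosin (Tpm3, chr3:90072649-90100902) 34.6 and slow troponin I (Tnni1, chr1:135779434-135810989) 25.2 CPM per kb. Each slow gene exceeded the next in all 11 libraries on the union of exons. With the longest transcript as the length the rank order of the 10 means was the same, but some neighbours lay closer and others farther apart. Acta1 then exceeded Tnnt3 in 7 of 11 libraries, Tnnc2 exceeded Tnni2 in 8 of 11 and Tnnc1 exceeded Tnnt1 in 10 of 11. Tpm3 is less certain than the rest, because 23.2% of the 50-base words in its transcripts also occur in other genes, chiefly Tpm3-rs7 and pseudogenes. For Acta1 the share was 2.02% (Actb, Actg1 and pseudogenes), for Tnnt1 0.827% and for Tnni1 0.380%, and for the other 6 genes it was 0%. Tnni2 and Tnnt3 are neighbours 54.4 kb apart on chromosome 7. Tnnt1 lies 1.92 kb from cardiac troponin I (Tnni3, at most 0.404 CPM in any library).

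**Figure D1:**
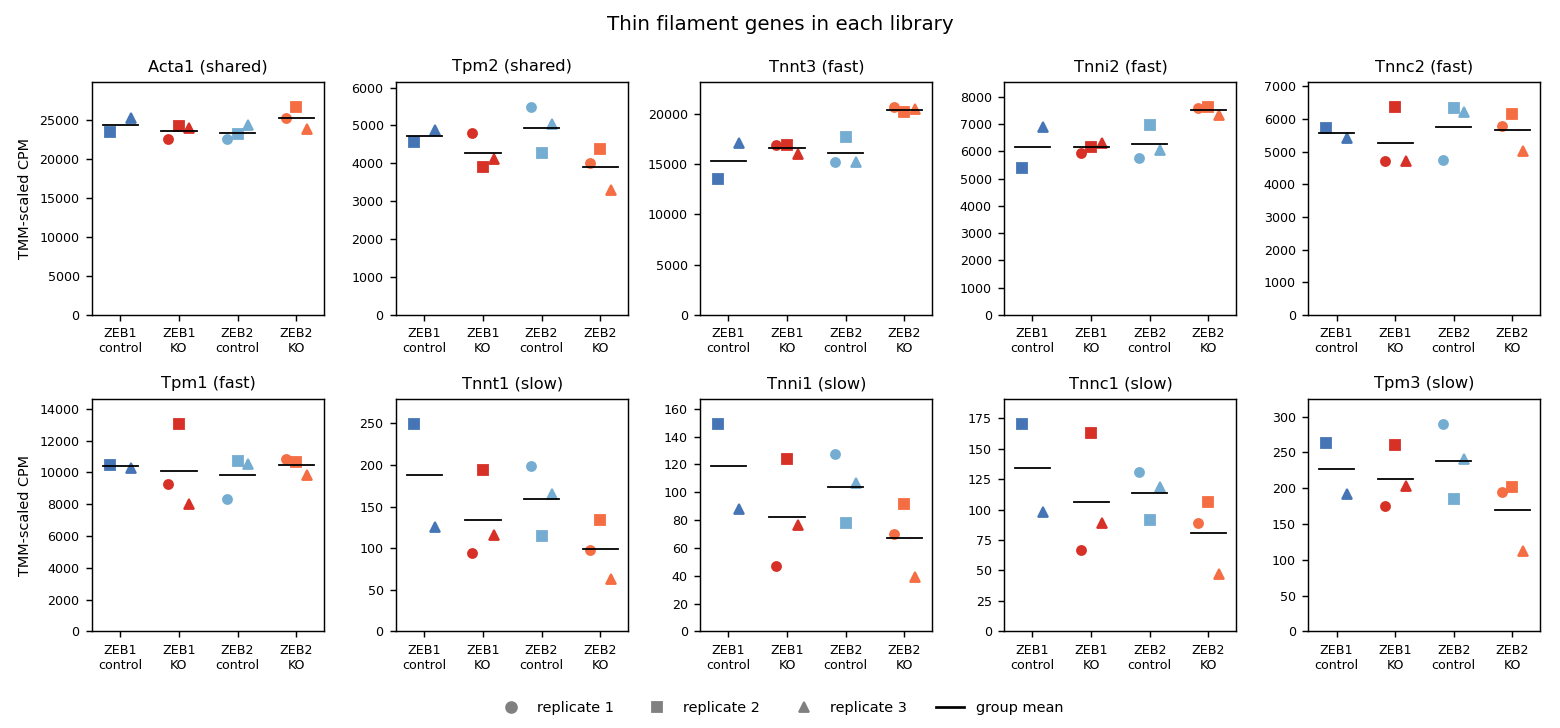
TMM-scaled CPM of the 10 thin filament genes in each library (points, shaped by replicate number) with the group mean (bar), for 2 genes used by both fibre types, 4 fast and 4 slow genes. Tnnt3 and Tnni2 stand higher in all 3 ZEB2_KO libraries than in all ZEB2_control libraries, and the slow genes spread widely within every group.

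The slow share of each isoform pair, taken on the length-scaled levels, gives the balance of slow to fast message within 1 library and does not depend on library size. In whole muscle, fewer cells of a type and less RNA per cell cannot be told apart. Counts are per gene, so those of Tpm3 and Tpm1 sum 16 and 21 annotated transcripts. Any forms made outside muscle fibres were not separated, so the tropomyosin share is a less direct measure of slow and fast message. Tnnt1 made up 0.220% to 1.31% of troponin T, Tnni1 0.220% to 1.14% of troponin I, Tnnc1 0.713% to 2.24% of troponin C, and Tpm3 1.20% to 3.58% of the Tpm3 and Tpm1 sum. All 4 shares were lowest in the library ZEB2_KO 3. The 3 troponin shares were highest in ZEB1_control 2, and the tropomyosin share was highest in ZEB2_control 1.

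By group, the slow share of troponin T averaged 0.915% ± 0.553 in ZEB1_control (SD, n = 2), 0.579% ± 0.215 in ZEB1_KO (n = 3), 0.722% ± 0.237 in ZEB2_control (n = 3) and 0.346% ± 0.128 in ZEB2_KO (n = 3). In the ZEB2 line the controls stood at 0.928%, 0.464% and 0.773% and the knockouts at 0.341%, 0.476% and 0.220%. The groups overlapped by 1 library, ZEB2_control 2, which lay just below ZEB2_KO 2. The difference of mean log2 ratios, knockout minus control, was -1.08 for Tnnt1 to Tnnt3, -0.96 for Tnni1 to Tnni2, -0.54 for Tnnc1 to Tnnc2 and -0.61 for Tpm3 to Tpm1 in the ZEB2 line. In the ZEB1 line the corresponding differences were -0.59, -0.59, -0.29 and -0.03. No test was made on these ratios. Leaving out 1 library at a time, the ZEB2 differences kept their sign but moved. They ran from -1.37 (without ZEB2_control 2) to -0.79 (without ZEB2_KO 3) for troponin T, from -1.24 to -0.63 for troponin I and from -0.76 to -0.27 for troponin C without the same libraries, and from -0.84 (without ZEB2_control 2) to -0.34 (without ZEB2_control 1) for tropomyosin. Those of the ZEB1 line depended on which control was kept, since without ZEB1_control 2 the troponin T difference was 0.08 and without ZEB1_control 3 it was -1.25.

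**Figure D2:**
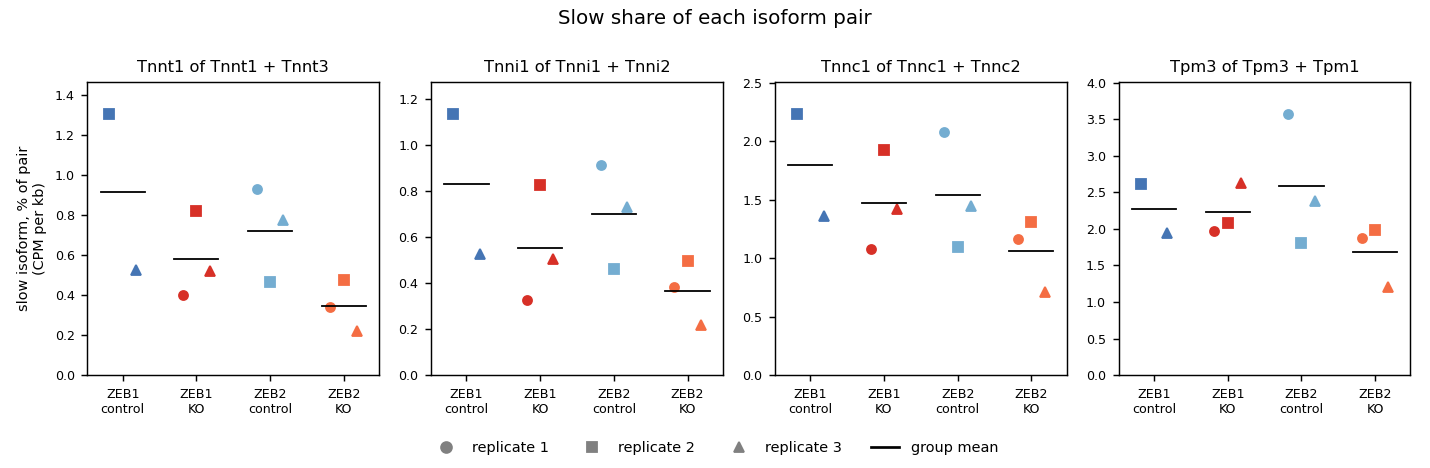
Slow isoform as a percentage of each slow and fast pair, from CPM per kb, in each library (points) with the group mean (bar). The troponin shares range from 0.220% to 2.24% and are lowest in ZEB2_KO 3 and highest in ZEB1_control 2.

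Loss of ZEB2 in myofibres was compared with the floxed controls of the same line. None of the 10 thin filament genes passed the edgeR quasi-likelihood test (Benjamini-Hochberg adjusted p over 15416 genes, threshold 0.05), and neither did any other gene (0% called in either direction). At an unadjusted p under 0.05 there were 3 of the 10 (Tnnt3, Tnni2 and Tpm2), against 33.2% of all genes tested. Every ZEB2_KO library lay above every ZEB2_control library for 2 of the 10 (21.3% of all genes) and below for 0 of the 10 (22.1%). DESeq2 called 1 of the 10, Tnnt3, as higher (10.5% of its genes) and 0 as lower (8.91%). The shares of the 10 genes were thus close to or below those of all genes. The median log2 fold change of the 10 was -0.18, with 4 higher and 6 lower, against a median of -0.05 over all genes tested, of which 46.6% were higher.

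Fast troponin T gave the smallest p. Tnnt3 stood at 15234, 17662 and 15214 CPM in ZEB2_control and at 20631, 20119 and 20459 CPM in ZEB2_KO. The knockout libraries lay close together and above all other 8 libraries of the series, of which the highest was ZEB2_control 2. The difference on the log2 scale was 0.35, with a standard error (SE) of 0.11 and a 95% interval of 0.10 to 0.59 (edgeR, adjusted p = 0.0887). DESeq2 gave 0.38 with an adjusted p of 0.0389. With Y-linked counts as a covariate the value was 0.28 (edgeR, adjusted p = 0.382), and over all alternatives the adjusted p ran from 0.0389 to 0.382.

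Fast troponin I followed the same pattern. Tnni2 stood at 5763, 6985 and 6036 CPM in ZEB2_control and at 7604, 7622 and 7341 CPM in ZEB2_KO, again without overlap. On the log2 scale the difference was 0.26 (SE 0.12) and an interval of 0.0023 to 0.53 (edgeR, adjusted p = 0.149). Fast troponin C did not share it. Tnnc2 stood at 4732, 6328 and 6229 CPM in ZEB2_control and at 5796, 6146 and 5012 CPM in ZEB2_KO, with overlapping groups. The log2 difference was -0.03, with an interval of -0.37 to 0.32 (edgeR, adjusted p = 0.912). Fast tropomyosin resembled troponin C, with Tpm1 at 8323, 10700 and 10541 CPM in the controls, against 10839, 10661 and 9817 CPM in the knockouts. The difference was 0.08 with an interval of -0.29 to 0.46 (edgeR, adjusted p = 0.747).

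Of the genes used by both fibre types, Acta1 stood at 22594, 23319 and 24441 CPM in ZEB2_control and at 25262, 26704 and 23965 CPM in ZEB2_KO. The groups overlapped, and the log2 difference was 0.11 (SE 0.09) with an interval of -0.09 to 0.31 (edgeR, adjusted p = 0.406). Tpm2, the beta-tropomyosin gene, stood at 5482, 4285 and 5038 CPM in the controls, against 4022, 4391 and 3305 CPM in the knockouts. It was lower on average, with 1 knockout library, ZEB2_KO 2, above the lowest control. On the log2 scale it differed by -0.34 (SE 0.14), with an interval of -0.65 to -0.03 (edgeR, adjusted p = 0.129).

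The slow genes were lower on average in ZEB2_KO and overlapped in every case. Over all alternatives the adjusted p reached 0.699 for Tnnt1, 0.730 for Tnni1, 0.879 for Tnnc1 and 0.648 for Tpm3. All ZEB2_KO pools carried Y-linked counts and ZEB2_control 3 had 0 CPM. With these counts as a covariate, the 4 slow genes kept their negative sign in the ZEB2 contrast. In another comparison, the ZEB2 effect minus the ZEB1 effect, the values turned positive for Tnnt1 (0.15), Tnni1 (0.19) and Tnnc1 (0.20). Tnnt1 stood at 199, 114 and 165 CPM in ZEB2_control and at 98.4, 134 and 62.8 CPM in ZEB2_KO. That is -0.70 on the log2 scale (SE 0.37), with an interval of -1.51 to 0.12 (edgeR, adjusted p = 0.208). Without ZEB2_KO 3 it was -0.44 and without ZEB2_KO 2 it was -0.98. Tnni1 stood at 128, 77.7 and 106 CPM in the controls, against 70.2, 91.5 and 38.9 CPM in the knockouts (log2 fold change -0.64, SE 0.39, edgeR adjusted p = 0.269). Tnnc1 stood at 131, 91.5 and 119 CPM in the controls, against 89.0, 106 and 46.8 CPM in the knockouts (-0.50, SE 0.38, adjusted p = 0.364 by edgeR). For both genes ZEB2_KO 3 was the lowest library of the series and ZEB2_KO 2 lay above ZEB2_control 2. Tpm3 stood at 290, 185 and 241 CPM in the controls, against 195, 202 and 112 CPM in the knockouts (-0.49, SE 0.25, adjusted p = 0.197 by edgeR). Without ZEB2_KO 3 the values for Tnni1, Tnnc1 and Tpm3 were -0.34, -0.20 and -0.24. Fibroblast markers (6 of 6 lower) summed to 585 to 774 CPM in ZEB2_KO and 929 to 1276 CPM in ZEB2_control, and tendon markers (6 of 6 lower) to 54.8 to 68.3 CPM and 86.0 to 165 CPM, with none at 0. By gene, 3 fibroblast and 2 tendon markers had every ZEB2_KO library below every control (22.1% of all genes). In each list 4 of 6 had an unadjusted p under 0.05 as lower (17.3% of all genes). DESeq2 called 3 of 6 lower in each list (8.91% of its genes). The edgeR test, which called 0% of all genes, called none of these markers. Their part in the slow gene values was not tested.

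Direction depended on the scaling for 3 of the 10 genes. Over the 7278 genes with a mean of at least 10 CPM, the median log2 fold change in the ZEB2 contrast was 0.14 with TMM factors and 0.02 with no scaling factor. Relative to that TMM median, Tnnt3 stood at 0.21, Tnni2 at 0.12, Acta1 at -0.03, Tpm1 at -0.06, Tnnc2 at -0.17, Tpm2 at -0.48 and Tnnt1 at -0.84. Acta1 and Tpm1 took the other sign with no scaling factor, at -0.015 and -0.039, and Tnnc2 with RLE factors, at 0.0028. Tnnt3, Tnni2, Tpm2 and the 4 slow genes kept their sign under each scaling tried.

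**Figure D3:**
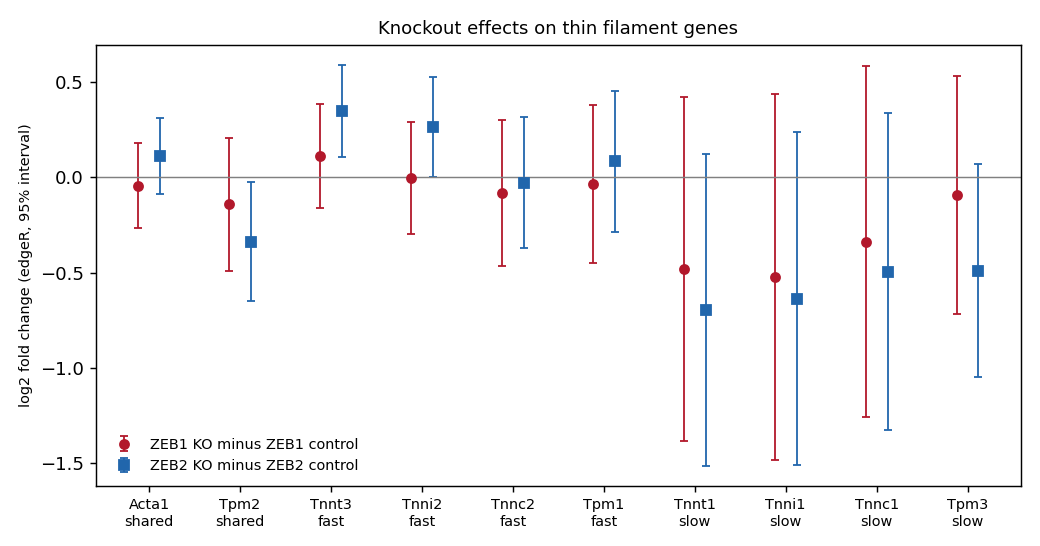
Log2 fold change of each thin filament gene in ZEB1_KO and ZEB2_KO against the controls of the same line, with 95% intervals from the edgeR fit of 11 libraries. The slow genes carry the widest intervals, and the ZEB2 values run from -0.70 (Tnnt1) to 0.35 (Tnnt3).

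Loss of ZEB1 was compared in the same way. None of the 10 genes passed the edgeR test, and neither did any other gene (0% called). None had an unadjusted p under 0.05 (3.24% of all genes), none had every knockout library above every control (7.19%) or below every control (6.69%), DESeq2 called none (0.110% of genes higher, 0.0260% lower), and limma-voom called none (0.00649% in either direction). Adjusted p was 1.00 for each of the 10 (edgeR). With 2 controls, the interval for a gene was wide. The median log2 fold change of the 10 was -0.09, with 1 above 0 and 9 under 0, against 0.01 over all genes tested, of which 51.2% were higher.

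The 2 ZEB1 controls lay far apart for the slow genes. Tnnt1 stood at 249 and 125 CPM in ZEB1_control 2 and 3 and at 94.1, 194 and 116 CPM in ZEB1_KO. Both control values thus bracketed 1 of the 3 knockouts, and the log2 fold change was -0.48 with an interval of -1.38 to 0.42. Without ZEB1_control 2 it was 0.09 and without ZEB1_control 3 it was -0.89. Tnni1 stood at 149 and 88.1 CPM in the controls, against 47.1, 124 and 76.7 CPM in the knockouts (-0.52, interval -1.49 to 0.44). That value was -0.11 without ZEB1_control 2 and -0.94 without ZEB1_KO 2. Tnnc1 stood at 170 and 97.7 CPM in the controls, against 66.9, 163 and 88.7 CPM in the knockouts (-0.34, interval -1.26 to 0.58), which became 0.11 without ZEB1_control 2 and -0.79 without ZEB1_KO 2. For these 3 genes ZEB1_KO 2 lay near ZEB1_control 2, and the other knockouts lay below ZEB1_control 3. Tpm3 stood at 263 and 191 CPM in the controls, against 175, 261 and 203 CPM in the knockouts (-0.09, interval -0.72 to 0.53). Fibroblast markers summed to 600 to 857 CPM in ZEB1_KO and 961 and 1119 CPM in ZEB1_control, and tendon markers to 42.9 to 54.3 CPM and 95.6 and 104 CPM, with 6 of 6 lower in both lists. By gene, 1 fibroblast and 3 tendon markers had every ZEB1_KO library below both controls (6.69% of all genes). Neither edgeR (0% of all genes) nor DESeq2 (0.0260% of its genes lower) called any of these markers. Their part in the slow gene values of the ZEB1 line was not tested either.

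The abundant genes differed little in the ZEB1 line. Tnnt3 stood at 13542 and 17073 CPM in the controls, against 16830, 16877 and 15941 CPM in the knockouts, and all 3 knockouts fell between the controls (log2 fold change 0.11, interval -0.16 to 0.38). Tnni2 did the same, with 5399 and 6908 CPM around 5952, 6173 and 6311 CPM (-0.002, interval -0.30 to 0.29). Acta1 stood at 23465 and 25276 CPM in the controls, against 22659, 24227 and 24033 CPM in the knockouts (-0.04, interval -0.27 to 0.18). Tnnc2 stood at 5727 and 5434 CPM in the controls, against 4723, 6363 and 4730 CPM in the knockouts (-0.08). Tpm1 stood at 10443 and 10301 CPM in the controls, against 9280, 13054 and 8008 CPM in the knockouts (-0.04). For both genes ZEB1_KO 2 was the highest library of the series and the other 2 knockouts lay below both controls. Tpm2 stood at 4553 and 4882 CPM in the controls, against 4792, 3908 and 4120 CPM in the knockouts (-0.14).

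Whether the knockout effects differed between the lines was tested as an interaction. None of the 10 genes passed (edgeR, 0% of all genes called in either direction), and none had an unadjusted p under 0.05 (9.26% of all genes). DESeq2 called none of the 10 (0.0397% of its genes higher and 0.0728% lower). The difference, ZEB2 effect minus ZEB1 effect, ran from -0.40 for Tpm3 (interval -1.24 to 0.44) to 0.27 for Tnni2 (interval -0.13 to 0.66). For Tnnt3 it was 0.23 with an interval of -0.13 to 0.60 (edgeR, adjusted p = 0.580). Without ZEB1_control 3 the Tnnt3 and Tnni2 values were 0.088 and 0.11, and without ZEB1_control 2 they were 0.43 and 0.47. The separation of Tnnt3 and Tnni2 in ZEB2_KO is therefore not shown to differ from the ZEB1 line. Between the 2 control groups the 10 genes differed by -0.24 (Tnnc1) to 0.07 (Tpm3), with an adjusted p of 1.00 for each (edgeR, 0.0195% of all genes called as lower and 0% as higher). None of the 10 had an unadjusted p under 0.05 (3.32% of all genes), and none was called by DESeq2 (0.0130% higher, 0.0909% lower) or limma-voom (0.0130%). None separated the control groups as higher (8.96%) or lower (7.66%) in every ZEB2_control library, and 5 of the 10 had a value above 0 (52.4% of all genes).

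The slow genes varied more than the others and did so together. Across the 11 libraries Tnnt1 ran from 62.8 CPM in ZEB2_KO 3 to 249 CPM in ZEB1_control 2, a 3.97-fold range, and Tnni1, Tnnc1 and Tpm3 had ranges of 3.84-fold, 3.64-fold and 2.59-fold. Acta1 had a range of 1.18-fold, the smallest of the 10, and the fast genes and Tpm2 lay between 1.35-fold and 1.66-fold. Within groups the SD of log2 CPM was 0.53 for Tnnt1 and 0.07 for Acta1.

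Correlations were taken on log2 CPM over the 11 libraries for all 45 pairs, with p from 100000 permutations and Benjamini-Hochberg adjustment over the pairs. The 6 pairs of slow genes had Pearson's r of 0.93 to 0.98 and Spearman's rho of 0.85 to 0.99. Their adjusted p ran from 7.5e-05 to 0.000281 for r and from 0.000225 to 0.00827 for rho, where a raw p of 1e-05 is the smallest the permutations can give. Without the 2 libraries farthest from the median r was 0.87 to 0.96, and with group means removed it was 0.94 to 0.98, so the slow genes varied together within groups as well as between them. Tnnt3 and Tnni2 were paired in the same way, with r = 0.94 and rho = 0.91 (adjusted p = 7.5e-05 and 0.00232 by permutation). That r was 0.89 without ZEB1_control 2 and ZEB2_KO 1 and 0.90 with group means removed. Tnnc2 and Tpm1 formed another pair, with r = 0.86 and rho = 0.91 (adjusted p = 7.5e-05 and 0.00198 by permutation), 0.82 without ZEB1_KO 1 and ZEB1_KO 3 and 0.91 with group means removed.

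Slow and fast troponin T ran in opposite directions by r, while rho did not pass. Tnnt1 and Tnnt3 had r = -0.76 (permutation adjusted p = 0.0346) and rho = -0.68 (adjusted p = 0.117). Without ZEB1_control 2 and ZEB2_KO 3 r was -0.51, so the relation rests largely on those libraries. With group means removed it was -0.60. Slow and fast troponin I passed for neither, with r = -0.52 and rho = -0.55 for Tnni1 and Tnni2 (permutation adjusted p = 0.198 and 0.216). Without ZEB1_KO 1 and ZEB2_KO 3 that r was -0.82. Slow and fast troponin C did not run in opposite directions, with r = 0.46 for Tnnc1 and Tnnc2 (rho = 0.50, permutation adjusted p = 0.269 and 0.289, 0.43 without the 2 farthest libraries). Of all 45 pairs, 9 had an adjusted p under 0.05 for r, namely the 6 slow pairs, Tnnt3 with Tnni2, Tnnc2 with Tpm1, and Tnnt1 with Tnnt3. All but the last also passed for rho.

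**Figure D4:**
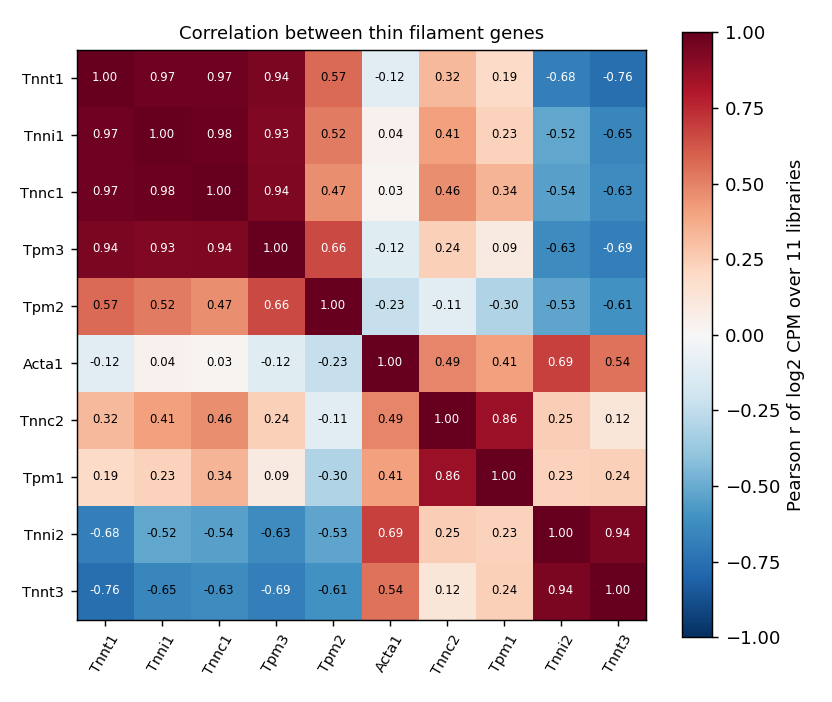
Pearson's r between thin filament genes on log2 CPM over 11 libraries. The 4 slow genes form a block of 0.93 to 0.98, Tnnt3 with Tnni2 (0.94) and Tnnc2 with Tpm1 (0.86) form pairs, and the r of the slow genes with Tnnt3 is -0.76 to -0.63, of which the r of Tnnt1 alone has an adjusted p under 0.05.

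The 10 genes were also set against 11 other genes of fibre type and muscle wasting, a family of 110 relations of which 56 had an adjusted p under 0.05 for r and 46 for both r and rho. Tnnt1 followed Myl2 and Myl3, the light chains of slow and ventricular myosin, with r = 0.98 and 0.96 (rho = 0.98 and 0.97, permutation adjusted p = 0.000275 for each r and 0.000367 for each rho). Without the 2 farthest libraries r was 0.96 and 0.94. It ran against Trim63, the ubiquitin ligase MuRF1 that is induced in wasting muscle and binds sarcomere proteins, with r = -0.86 and rho = -0.80 (permutation adjusted p = 0.00358 and 0.0187). Without ZEB1_control 2 and ZEB2_KO 3 that r was -0.78, and with group means removed it was -0.81. The relation was not particular to Trim63, since r of Tnnt1 was -0.87 with Foxo1, -0.86 with Fbxo32 and -0.84 with Sqstm1. For Tnnt3 the r with these genes was 0.88, 0.84 and 0.87. Tnnt3 ran with Trim63, with r = 0.79 and rho = 0.86 (permutation adjusted p = 0.0115 and 0.0110), 0.69 without the 2 farthest libraries and 0.67 with group means removed. Acta1 showed no such relation (r = 0.26 and rho = 0.33 with Trim63, permutation adjusted p = 0.531 and 0.435, 0.10 without the 2 farthest libraries).

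**Figure D5:**
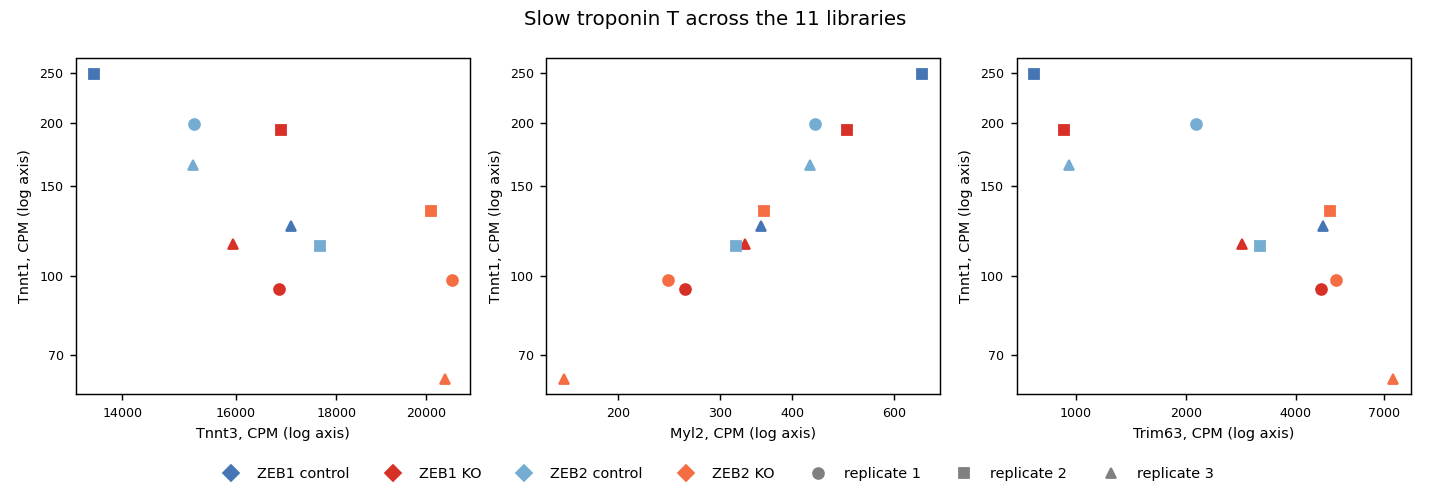
Slow troponin T (Tnnt1) against fast troponin T (Tnnt3), the slow myosin light chain Myl2 and the ubiquitin ligase Trim63, in CPM on log axes, with 1 point per library. Tnnt1 follows Myl2 (r = 0.98) and runs against Trim63 (r = -0.86). With Tnnt3 r is -0.76, and rho does not pass (permutation adjusted p = 0.117).

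The genes most like each member were listed among 7257 others with a mean of at least 10 CPM, by Pearson's r of log2 CPM over the 11 libraries, as a description. Myl2 came first for Tnnt1 (0.98), Tnnc1 (0.96) and Tnni1 (0.95). Myl3 and Trp53i11 followed for Tnnt1 (0.96 and 0.94), and Trp53i11 was also next for Tnni1 (0.94). Trp53i11 shares 50-base words with Tnnt1, of whose 2418 words 20 occur in other genes. For Tnnt3 the list was Gstm5 (0.97), Jph1 (0.96), a junctophilin that joins muscle membranes, and Cops5 (0.96), a subunit of the COP9 signalosome. For Tnni2 it was Cops5 (0.96), Pomp (0.94), the proteasome maturation protein, and the proteasome subunit Psmb7 (0.94). Parvalbumin (Pvalb), the calcium buffer of fast fibres, was most like Tnnc2 (0.92), Pitpna most like Tpm1 (0.96), Fam129b most like Tpm2 (0.90), Ctsc most like Tpm3 (0.95) and Gpx4-ps2 most like Acta1 (0.86).

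Other actin, troponin and tropomyosin genes gave lower values in ZEB2_KO. Of 8 listed, 7 were tested and all 7 lay under 0, at a median of -0.67 on the log2 scale, against -0.05 over all genes. None passed edgeR, 5 had an unadjusted p under 0.05 as lower (17.3% of all genes), and DESeq2 called 3 lower (8.91% of its genes). Smooth muscle actin Acta2 stood at 54.2, 52.1 and 57.5 CPM in ZEB2_control and 35.9, 36.6 and 28.6 CPM in ZEB2_KO (-0.70, SE 0.14, edgeR adjusted p = 0.0775, DESeq2 0.00356). Tpm4, a cytoskeletal tropomyosin, gave -0.67 (SE 0.19, edgeR adjusted p = 0.0797, DESeq2 0.026) and cytoplasmic gamma-actin Actg1 -0.77 (SE 0.27, edgeR adjusted p = 0.0977, DESeq2 0.0489). All 11 smooth muscle and pericyte markers, Acta2 and Actg2 among them, were also lower. Of these 11, 7 had every ZEB2_KO library below every control (22.1% of all genes). DESeq2 called 4 of the 11 lower (8.91% of its genes), and edgeR called none. The 11 markers summed to 477 to 502 CPM in ZEB2_KO and 621 to 701 CPM in ZEB2_control, with none at 0, and their part in these values was not tested. In the ZEB1 line 3 of the 7 isoforms were higher and 4 lower (median -0.01), and the marker sums overlapped at 527 to 671 CPM in ZEB1_KO and 558 and 606 CPM in ZEB1_control. Cardiac alpha-actin (Actc1), which skeletal muscle also makes, was variable. It ran from 114 CPM in ZEB2_KO 3 to 918 CPM in ZEB2_control 1.

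Genes that set thin filament length, cap its ends or turn it over were lower more often than higher in ZEB2_KO. Of 26 tested, 17 were lower and 9 higher, with a median log2 fold change of -0.28. None passed edgeR, 12 had an unadjusted p under 0.05 as lower (17.3% of all genes) and 0 as higher (15.9%), and DESeq2 called 7 lower (8.91% of its genes). Nebulin (Neb), the giant protein that spans the thin filament, stood at 4677, 4140 and 4275 CPM in ZEB2_control and 3536, 2931 and 3276 CPM in ZEB2_KO (-0.43, SE 0.12, edgeR adjusted p = 0.0793, DESeq2 0.0245). Xirp2, an actin-binding repeat protein, gave -0.67 (SE 0.16, edgeR adjusted p = 0.0775) and Wdr1, which helps cofilin to disassemble actin, -0.68 (SE 0.19, edgeR adjusted p = 0.0794). In the ZEB1 line 15 were higher and 11 lower (median 0.06), with Klhl40, a partner of nebulin, at 0.51 (SE 0.15, edgeR adjusted p = 1.00). Of the 26 genes, 10 had every ZEB2_KO library below every ZEB2_control library (22.1% of all genes), Neb, Xirp2 and Wdr1 among them, and 2 had every one above (21.3%).

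Slow genes outside the thin filament lay on the same side as the slow thin filament genes in ZEB2_KO. Of 10 tested, 9 were lower with a median of -0.63, 6 had an unadjusted p under 0.05 as lower (17.3% of all genes) and DESeq2 called 3 lower (8.91% of its genes), while edgeR called none. Slow myosin-binding protein C (Mybpc1) gave -0.75 (SE 0.13, edgeR adjusted p = 0.0775, DESeq2 0.000325), cardiac calsequestrin (Casq2) -1.62 (SE 0.45, edgeR adjusted p = 0.0811) and slow myosin (Myh7) -1.05 (SE 0.33, edgeR adjusted p = 0.0881). Fast genes were divided, with 6 of 11 higher and 5 lower (median 0.06). Those with the smallest p were lower, namely Myh2 (-1.54, SE 0.24, edgeR adjusted p = 0.0775, DESeq2 8.98e-06), the myosin of type IIA fibres, Casq1 (-1.23, SE 0.47) and Myh1 (-0.85, SE 0.35). In the ZEB1 line 8 of 10 slow genes were lower (median -0.32) and the fast genes had a median of -0.002, with edgeR calling none of them.

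Among 16 regulators of fibre genes 7 were higher and 9 lower in ZEB2_KO (median -0.10), and edgeR called none. Prox1, a factor of slow fibres, gave -1.06 (SE 0.24, edgeR adjusted p = 0.0775, DESeq2 0.00557) from 2.61 to 3.71 CPM in controls to 1.44 to 1.73 CPM in knockouts. Mef2c, an activator of muscle genes, gave -1.47 (SE 0.40, edgeR adjusted p = 0.0793, DESeq2 0.00703), and Myod1 -2.02 (SE 0.77, edgeR adjusted p = 0.112). Of 7 atrophy genes 6 were higher in ZEB2_KO (46.6% of all genes) and 1 lower (-0.69), with a median of 1.22, and edgeR called none. By gene, 5 had every ZEB2_KO library above every control (21.3% of all genes) and 1 below (22.1%). DESeq2 called 4 higher (10.5% of its genes) and 1 lower (8.91%). The summed level of the 7 was 10370 to 15375 CPM against 2596 to 6622 CPM in ZEB2_control. In the ZEB1 line that sum overlapped, at 2198 and 8942 CPM in controls and 2862 to 8545 CPM in knockouts. ZEB1_control 2, the library with the highest slow troponin shares, had the lowest atrophy sum of the series, and ZEB2_KO 3, with the lowest shares, had the highest. The part of wasting in the thin filament values was not tested.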

How the data were processed

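Gastrocnemius RNA was extracted with Trizol and sequenced from stranded mRNA libraries, per the labels' protocols. The authors deposited counts per gene, in whole numbers with no normalization. The submitters' processing notes name STAR, RSEM, DESeq2 and GRCm38. No version, annotation release or strand setting is given in these sources. RSEM apportions reads among similar genes, which leaves near-identical or overlapping genes uncertain.

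The 11 libraries were fitted in R 4.3.3 with edgeR 4.0.16, using TMM scaling, filterByExpr (minimum count 10, minimum total 15) and a robust quasi-likelihood model of 4 group means. Benjamini-Hochberg adjustment covered the 15416 genes tested, with a threshold of 0.05. Each SE was taken as the absolute log2 fold change over the root of F. Alternatives were DESeq2 1.42.0, limma-voom (limma 3.58.1), other scalings and filters, only the groups compared, a replicate block, a Y-linked covariate and the omission of each library. Exon lengths and coordinates came from GENCODE M21 (GRCm38), which matched 55144 of 55385 identifiers once versions were removed. Correlations used log2 CPM with a prior count of 2. The scripts were tested on simulated counts. Libraries of 1 group differed well beyond counting noise (chi-square 16.3 to 109 per degree of freedom), so none was treated as a duplicate.

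The genes and lists were chosen with earlier results of these data known. All 10 thin filament genes were named in each contrast. From other lists up to 3 genes by smallest p could be named, and the 3 genes most like each thin filament gene. Trim63, Fbxo32, Tnni3 and the cardiac markers fall outside that rule and were named after their values were seen. In ZEB2_KO 5 of 6 macrophage markers were lower, as were 5 of 5 endothelial, 5 of 5 adipocyte, 5 of 5 Schwann cell and 5 of 5 erythroid markers. The edgeR test called none of them. DESeq2 called 2 endothelial, 1 adipocyte and 1 Schwann cell marker lower (8.91% of its genes), and 0 macrophage or erythroid markers.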

Additional observations from a re-analysis of the deposited data

How the results depend on the processing

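The titles give the knockout and control libraries of a line shared numbers. Same-numbered libraries did not all deviate together (r = 0.46 and 0.17 in the ZEB1 line, 0.20, -0.027 and -0.31 in the ZEB2 line), so the numbers were not taken as pairs. The source names number the ZEB1 controls 1 and 2 instead of 2 and 3, which would change their partners. ZEB1_control 3 with ZEB1_KO 2 gave r = -0.46, and ZEB1_control 2 with ZEB1_KO 1 gave -0.31. With 2 controls the deviations mirror each other, so the ZEB1 values are not separate checks. The replicate block also used the title numbers. With the replicate block 0 genes were called in each knockout contrast and in the difference of effects and 1 between controls, 0 of them thin filament genes. Of 390 fold changes of the 10 genes under settings other than omissions, 365 kept direction and side of the threshold, 1 (Tnnt3 in ZEB2 by DESeq2) became a call and 24 changed sign. Of 440 under omission of 1 library, 398 kept both and 42 changed sign. Every value that changed sign was uncalled, and the cause was not tested.

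Genes called in the ZEB1 contrast numbered 21 by DESeq2, 1 by limma-voom and 6 with no low-count filter, and 0 to 5 over omissions. In the ZEB2 contrast they numbered 2587 by DESeq2 (1 thin filament gene), 348 with no low-count filter and 2077 with only the groups compared. For the difference of effects they numbered 17 by DESeq2, 2 with no low-count filter and 0 to 3 over omissions. Between controls, against 3, they numbered 16 by DESeq2, 5 with RLE factors, 7 with no low-count filter, 0 with a mean of at least 10 CPM, 1 with the replicate block and 1 to 5 over omissions. Without length scaling the mean slow share of troponin I was 1.41%.

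In the ZEB1 contrast Tnni2 was 0.00035 by DESeq2, 0.0089 by limma-voom, 0.00035 with RLE factors, 0.0070 with no low-count filter, 0.024 with the replicate block and 0.011 with the Y-linked covariate. In the ZEB2 contrast Acta1 was -0.015 with no scaling and -0.044 with a mean of at least 10 CPM, Tpm1 -0.039 and -0.069, and Tnnc2 0.0028 by DESeq2 and with RLE factors and 0.055 with the Y-linked covariate. For the difference of effects the Y-linked covariate gave 0.15 for Tnnt1, 0.19 for Tnni1 and 0.20 for Tnnc1, and Tnnc2 was -0.014 with no scaling and -0.055 with a mean of at least 10 CPM. Between controls no scaling gave -0.0016 for Tnnt3, -0.044 for Tnni2, -0.032 for Tnnc2, -0.0027 for Tpm2 and -0.0080 for Tpm3, and the replicate block gave -0.00084 for Tpm2.

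Leaving out 1 library at a time, the ZEB1 values ran from -0.12 to 0.0027 for Acta1, -0.89 to 0.089 for Tnnt1, -0.063 to 0.28 for Tnnt3, -0.94 to -0.11 for Tnni1, -0.19 to 0.18 for Tnni2, -0.79 to 0.11 for Tnnc1, -0.26 to 0.10 for Tpm1 and -0.31 to 0.14 for Tpm3. The ZEB2 values ran from -0.15 to 0.070 for Tnnc2 and -0.025 to 0.15 for Tpm1. The difference of effects ran from -0.76 to 0.22 for Tnnt1, 0.088 to 0.43 for Tnnt3, 0.11 to 0.47 for Tnni2, -0.61 to -0.14 for Tpm3, -0.51 to 0.30 for Tnni1, -0.58 to 0.29 for Tnnc1, -0.069 to 0.21 for Tnnc2 and -0.0029 to 0.35 for Tpm1. Between controls it ran from -0.66 to 0.32 for Tnnt1, -0.11 to 0.23 for Tnnt3, -0.53 to 0.22 for Tnni1, -0.16 to 0.20 for Tnni2, -0.60 to 0.20 for Tnnc1, -0.026 to 0.17 for Tnnc2, -0.14 to 0.034 for Tpm1, -0.017 to 0.16 for Tpm2 and -0.15 to 0.30 for Tpm3. The log2 ratio of Tnnt1 to Tnnt3 ran from -1.25 to 0.078 in the ZEB1 contrast, -1.37 to -0.79 in the ZEB2 contrast, -1.16 to 0.17 for the difference and -0.92 to 0.40 between controls. Omitting a ZEB1 control leaves 1 library in that group, which is then assumed to vary like the others.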
